A study of Mus musculus with 16 samples.

Results

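Transcriptomes of gut segments labelled as ileum were compared between fat-1 and wild-type (WT) mice that had both been fed ethanol (EtOH): 5 fat-1 EtOH libraries against 3 WT EtOH libraries, which together are 8 of the 16 libraries of the series. Members were taken from the sample titles alone, and the comparison covered the 13811 of 21965 genes in the count table that passed a filter on low counts. All mice were C57BL/6 males, and their age was not analysed here. The fat-1 mice were heterozygous carriers (labelled Fat1+/-) of a nematode n3 fatty acid desaturase transgene that is expressed in every tissue, and the WT mice were their littermates. Both groups had drunk a liquid diet in which ethanol was raised in steps and held at 6% for the last 3 weeks. The pair-fed (PF) mice were 4 of each genotype on the ethanol-free control diet. They appear below beside single genes, in sums of marker genes, in 2 counts over all genes and in the shared estimate of spread. Each library came from poly(A) RNA of a whole gut segment of 1 mouse, labelled as terminal ileum.

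The fat-1 enzyme converts n6 polyunsaturated fatty acids (PUFAs) into n3 PUFAs, which mammals cannot do for themselves. Fatty acids of both families are precursors of eicosanoids and ligands of nuclear receptors of the PPAR family and of the free fatty acid receptors (FFARs), through which they act on lipid oxidation, barrier function and inflammation in the gut. The terminal ileum takes up bile acids, makes the hormone FGF15 in response to them, carries Paneth cells at its crypt bases, and contains lymphoid follicles (Peyer's patches). The comparison asks which ileal genes differed by genotype once ethanol had been given. The transgene itself has no row among the genes used here. The mouse gene Fat1, a large cadherin that only shares the name, had 337 to 433 CPM (counts of the gene over the TMM-adjusted library size, on the usual CPM scale) in the WT EtOH mice and 149 to 432 CPM in the fat-1 EtOH mice, so it does not check the genotype.

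The WT EtOH libraries held 9344942 to 11438539 counts and the fat-1 EtOH libraries 9045041 to 11366935, so that 3 reads correspond to 0.262 to 0.332 CPM. Before any gene is named, 3 libraries have to be set apart from the rest. In a principal component analysis of the 8 EtOH libraries, 66.3% of the variance lay on the first component, which placed fat-1 EtOH replicates 3 and 4 at 83.8 and 87.4, against -42.4 to -12.1 for the other 6. The second component held 15.7% and placed fat-1 EtOH replicate 5 at 59.0, against -25.3 to 10.4 for the other 7. Mice of the fat-1 EtOH group varied more among themselves than those of the WT EtOH group, with biological coefficients of variation (edgeR) of 0.407 and 0.173.

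The libraries of the first pair differed from the others in the genes that mark position along the gut. The 18 large intestine genes (such as the carbonic anhydrase Car1 and the water channel Aqp8) summed to 13403 and 14900 CPM in fat-1 EtOH replicates 3 and 4, to 7598 CPM in WT EtOH replicate 2, and to 2391 to 2917 CPM in the remaining 5. Car1 alone reached 11157 and 12208 CPM in those fat-1 EtOH replicates and 4041 CPM in WT EtOH replicate 2, against at most 79.1 CPM elsewhere. Car1 thus made up most of the sum in each of those 3 libraries. Of the 11 large intestine genes tested, fat-1 EtOH replicates 3 and 4 held the 2 highest values for 5 and the 2 lowest for 1. The mean log2 CPM of the 11 was 7.45 and 7.17 there, 7.07 in WT EtOH replicate 2 and 4.57 to 5.23 in the remaining 5 libraries. The 11 Paneth cell genes of the table, among them lysozyme and antimicrobial defensins, summed to 278 and 242 CPM in fat-1 EtOH replicates 3 and 4, against 10039 to 20658 CPM in the other 6 libraries. For Defa22, a Paneth cell defensin whose reads may be shared with its near-identical relatives, the values were 8.04 and 11.2 CPM against 763 to 1874 CPM. The 18 genes of the proximal small intestine summed to 669 and 790 CPM in these 2 libraries against 4931 to 8764 CPM, and the 10 genes of ileal bile acid handling to 1092 and 2068 CPM against 4771 to 8601 CPM. In bulk tissue, fewer cells of a type and less RNA per cell cannot be told apart. The 8 stomach genes summed to at most 0.513 CPM in any EtOH library.

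Fat-1 EtOH replicate 5 stood apart by lymphoid genes and, to a lesser degree, by endothelial genes (164 CPM against 59.1 to 81.2 CPM in the other 7 libraries) and adipocyte genes (1286 CPM against 273 to 754 CPM). The 14 genes of B-cell follicles summed to 935 CPM there and to 7.49 to 161 CPM in the other 7 libraries, with all 14 at their highest in replicate 5. Fcer2a (CD23, a low-affinity IgE receptor of follicular B cells) had 63.6 CPM there and 0 to 9.78 CPM elsewhere. Lef1, a transcription factor of T cells, had 18 CPM there and at most 0.895 CPM elsewhere. The T-cell list summed to 402 CPM against 27.6 to 141 CPM and the macrophage and dendritic cell list to 1027 CPM against 126 to 313 CPM. The genes on which most turns are therefore given per mouse, many of them also with the fit without fat-1 EtOH replicates 3 and 4. The labels give the same segment for all libraries, and whether it was taken at the same position in replicates 3 and 4 and in WT EtOH replicate 2 was not tested. How far tissue position and follicle content entered each gene's difference was not tested.

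**Figure D1:**
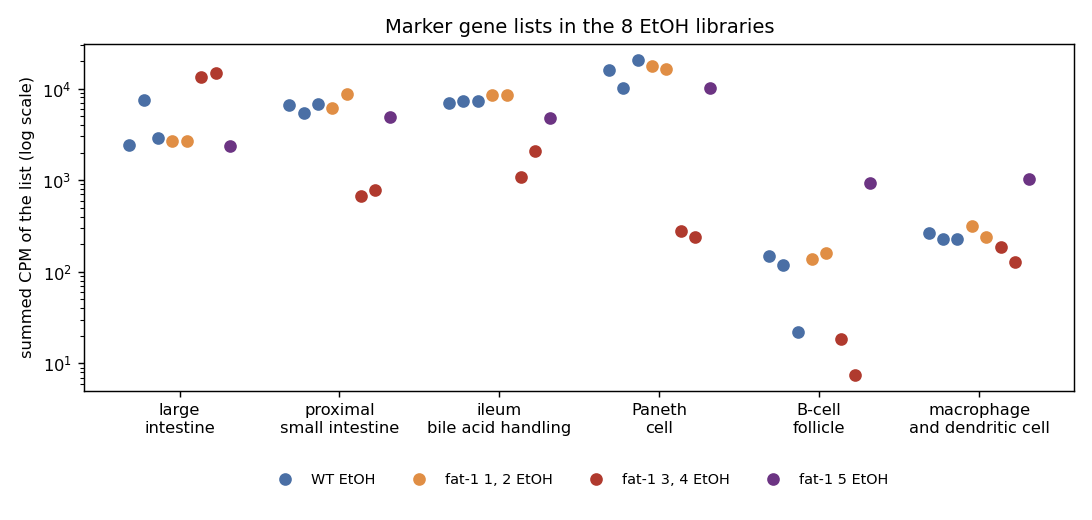
Summed CPM (log scale) of 6 marker gene lists in the 8 EtOH libraries, 1 point per mouse, coloured by genotype and, within fat-1, by replicate. Replicates 3 and 4 of fat-1 EtOH are the highest for large intestine genes, a sum made up mostly of Car1 in these 2 libraries. They are the lowest for Paneth cell genes (278 and 242 CPM), and replicate 5 is the highest for B-cell follicle genes (935 CPM).

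A single gene was differentially expressed. Arl4a was lower in the fat-1 EtOH mice and was the only DEG among 13811 genes at an adjusted p of 0.05 or less (quasi-likelihood test of edgeR, Benjamini-Hochberg adjusted), which is 0.00724% of the genes tested. No gene was called higher. Arl4a encodes a small GTPase of the ARF-like family that sits at the plasma membrane and recruits cytohesins, the exchange factors that activate ARF6 and through it actin remodelling. The gene (ENSMUSG00000047446) lies on the minus strand of GRCm38 at chr12:40005447-40038025. No other gene of the count table overlaps it, and genes outside that table were not searched. The 212 bases just before 1 of its 2 listed starts (RefSeq, GRCm38.p6, chr12:40038026-40038237, minus strand, 5′ to 3′) are shown because it is the only called gene. Capitals mark TGACCT, which is AGGTCA on the other strand, the hexamer read by PPARs and many other nuclear receptors.
Arl4a upstream: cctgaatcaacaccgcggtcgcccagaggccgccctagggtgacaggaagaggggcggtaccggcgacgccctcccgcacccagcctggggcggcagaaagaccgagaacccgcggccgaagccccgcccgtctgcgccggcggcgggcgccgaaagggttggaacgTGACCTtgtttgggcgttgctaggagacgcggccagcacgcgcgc
The motif AGGTCA, searched on both strands with overlaps counted once per window, occurred 1 time here and was present in 12.1% of 32851 mouse promoter windows of the same length, so the match is a description of the letters only.

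Arl4a measured 85.2, 66.4 and 82.8 CPM in the 3 WT EtOH mice, and 32.6, 36.2, 35.7, 41.2 and 31.2 CPM in the 5 fat-1 EtOH mice. Every fat-1 EtOH mouse was below every WT EtOH mouse, including replicates 3, 4 and 5, whose libraries stood apart in other genes. The group means were 78.2 ± 10.2 CPM (SD, n = 3) and 35.4 ± 3.87 CPM (SD, n = 5), or 45.3% of the WT level. The log2 fold change was -1.14 (SE 0.14, adjusted p = 0.00792 by edgeR), and the exact permutation test gave p = 0.0357 (two-sided), the smallest that 5 against 3 mice allow. Without fat-1 EtOH replicates 3 and 4 the log2 fold change was -1.23 (SE 0.16, adjusted p = 0.0206 by edgeR), and without WT EtOH replicate 2 in addition it was -1.33. The call was lost in edgeR when WT EtOH replicate 1 or WT EtOH replicate 3 was left out (adjusted p = 0.113 and 0.102), which leaves 2 WT EtOH mice, when only the 8 EtOH libraries were fitted (adjusted p = 0.256), and with the replicate number as a block (adjusted p = 0.152).

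The same direction was present without ethanol. Arl4a measured 67.2, 77.2, 77.4 and 83.1 CPM in the WT PF mice and 35.8, 45.3, 54.9 and 37.3 CPM in the fat-1 PF mice. These groups did not overlap either. Among the fat-1 PF mice, replicates 2 and 4 stood apart, with proximal small intestine genes at 78433 and 73676 CPM (32299 and 23972 CPM in replicates 1 and 3) and Paneth cell genes at 6731 and 8989 CPM (18481 and 24914 CPM), and the part of this in any PF difference was not tested. The PF log2 fold change was -0.82 (SE 0.14, adjusted p = 0.187 by edgeR), and the difference between the EtOH and PF fold changes was -0.33 on the log2 scale (unadjusted p = 0.113). Over both diets, all 9 fat-1 mice were below all 7 WT mice for 2 of 13811 genes (0.0145%) and above them for none (0%). The second gene was Raph1 (ENSMUSG00000026014, chr1:60482292-60567104), named here after its values were seen, which encodes lamellipodin, a regulator of actin at the leading edge of cells. Raph1 measured 154 to 182 CPM in the WT EtOH mice and 141, 129, 70.9, 63.8 and 105 CPM in the fat-1 EtOH mice, lowest in replicates 3 and 4. It did not pass the test (log2 fold change -0.70, SE 0.22, adjusted p = 0.757 by edgeR) and was -0.41 without those 2 replicates.

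**Figure D2:**
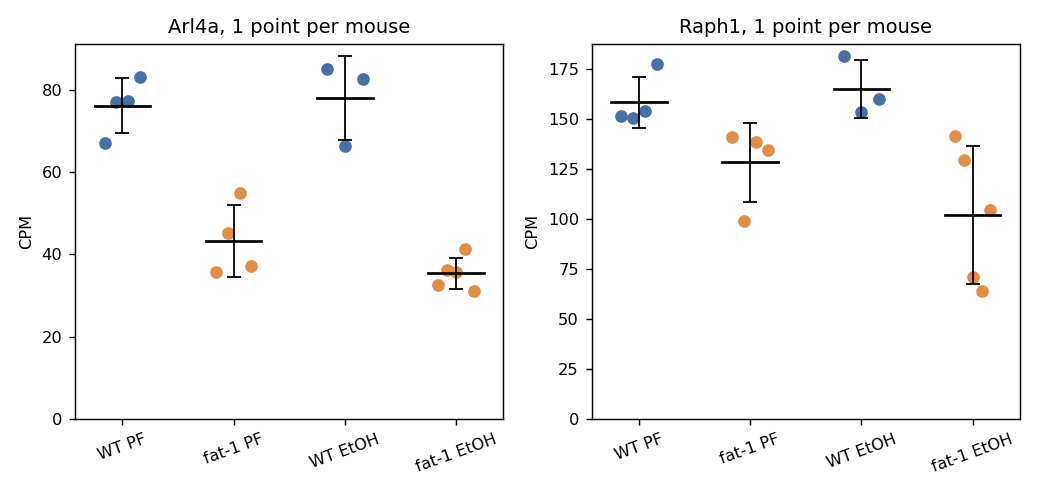
CPM of Arl4a and Raph1 in each of the 16 mice by group, with the group mean (thick line) and SD (bars). All 9 fat-1 mice lie below all 7 WT mice for both genes, and the fat-1 EtOH mice span 31.2 to 41.2 CPM for Arl4a.

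With all mice, the other GTPases and cytohesins of its pathway did not pass the test. Of the 8 tested genes of this list (the GTPases Arl4a, Arl4c, Arl4d and Arf6 and the cytohesins Cyth1 to Cyth4), only Arl4a had an unadjusted p under 0.05, beside 4.86% of all genes, and the median log2 fold change was -0.01, beside 0.04 over all genes. Arl4d, a second GTPase of the family, measured 28.7, 27.1 and 28.6 CPM in WT EtOH and 35.2, 38.1, 10.6, 9.72 and 26.2 CPM in fat-1 EtOH, lowest in replicates 3 and 4. Arl4c and the leukocyte cytohesin Cyth4 were highest in replicate 5, at 33.3 and 42.6 CPM, where the other 7 mice had at most 6.18 and 9.69 CPM. These 2 genes were higher at an unadjusted p under 0.05 without replicates 3 and 4, and the median of the list was then 0.11. Arf6 had 228 to 239 CPM in WT EtOH and 142 to 265 CPM in fat-1 EtOH. The remaining cytohesin genes Cyth1, Cyth2 and Cyth3 had log2 fold changes of 0.19, -0.21 and 0.20. Per kilobase of exon, Arl4a averaged 10.2 CPM in the WT EtOH mice and 4.60 CPM in the fat-1 EtOH mice, below Arf6 at 154 and 128 and Arl4d at 20.3 and 17.3.

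Around Arl4a on chromosome 12, 7 other tested genes start within 2 Mb, and their log2 fold changes ran from -0.78 to 0.57. The 2 with an unadjusted p under 0.05, named after their values were seen, were Scin and Dock4, 2 of 7 beside 4.86% of all genes. Scin, which encodes the actin-severing protein scinderin and lies close to Arl4a, measured 601, 506 and 602 CPM in WT EtOH and 466, 466, 158, 153 and 410 CPM in fat-1 EtOH. Its groups did not overlap, as for 2.45% of all genes (log2 fold change -0.78, unadjusted p = 0.0468 by edgeR), although the difference was -0.35 without replicates 3 and 4. Dock4, an exchange factor for Rac, was higher instead, at 2.69 to 3.15 CPM against 3.40 to 5.65 CPM.

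Below the threshold, 671 genes (4.86%) had an unadjusted p under 0.05, of which 469 (3.4%) were higher and 202 (1.46%) lower in fat-1 EtOH. The smallest adjusted p after that of Arl4a was 0.757. Many of them were extreme in the 2 libraries rich in large intestine genes. Replicates 3 and 4 held the 2 highest values of the 8 mice for 305 of the 469 higher genes (65.0%), beside 23.2% of all genes tested, and the 2 lowest values for 148 of the 202 lower genes (73.3%), beside 24.5%. Since the same mice set the p, these shares are descriptions. Without replicates 3 and 4, 425 of the 469 kept their sign but 82 kept an unadjusted p under 0.05, and of the 202 all kept their sign and 27 kept that p. In that smaller comparison 654 genes (4.74%) had an unadjusted p under 0.05, 515 of them higher (3.73%) and 139 lower (1.01%), 980 genes (7.1%) did not overlap, and 1 was a DEG, Arl4a. With WT EtOH replicate 2 left out as well, 412 genes (2.98%) had that p, 337 of them higher (2.44%) and 75 lower (0.543%), and Arl4a was again the only DEG. The count was not stable when 1 EtOH mouse at a time was left out. It then ran from 291 (without fat-1 EtOH replicate 3) to 1601 (without fat-1 EtOH replicate 2), against 671 with all.

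The 5 fat-1 EtOH mice and the 3 WT EtOH mice did not overlap for 338 genes (2.45%), with 197 higher (1.43%) and 141 lower (1.02%). Of these, 166 (1.2%) also had an unadjusted p under 0.05, 97 of them higher (0.702%) and 69 lower (0.5%). From that set the 10 highest and the 10 lowest log2 fold changes are described here, and none but Arl4a passed the adjustment. The lack of overlap that chose them fixes their exact permutation p at 0.0357, the smallest possible, so that this p adds nothing.

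Among those higher in fat-1 EtOH, the ones that deal with lipids were Angptl4 and Lpcat2. Angptl4, a secreted inhibitor of lipoprotein lipase and a classical PPAR target that fasting and fatty acids induce, measured 18.9, 25.9 and 24.8 CPM in WT EtOH and 43.5, 32.0, 68.6, 75.2 and 39.9 CPM in fat-1 EtOH. Replicates 3 and 4 were the highest, and the other 3 fat-1 EtOH mice also exceeded every WT EtOH mouse. The log2 fold change was 1.16 (SE 0.47, unadjusted p = 0.0276 by edgeR), or 0.72 (SE 0.50) without replicates 3 and 4. In the PF mice the values were 16.7 to 52.5 CPM for WT and 67.3, 13.8, 22.0 and 28.0 CPM for fat-1, lowest in the replicate 2 that stood apart, with a log2 fold change of -0.24 (unadjusted p of the difference between diets 0.047). Lpcat2, an acyltransferase that remodels phosphatidylcholine and makes platelet-activating factor, measured 5.37 to 5.97 CPM in WT EtOH and 7.79, 6.29, 23.1, 15.0 and 9.75 CPM in fat-1 EtOH (log2 fold change 1.11, and 0.46 without replicates 3 and 4).

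Etv5, an ETS transcription factor induced by growth factor signalling, had the largest log2 fold change of this set (2.42, SE 0.74), with 3.13, 3.67 and 2.27 CPM in WT EtOH and 3.8, 4.42, 42.2, 24.8 and 5.47 CPM in fat-1 EtOH. Its height came from replicates 3 and 4, and without them the log2 fold change was 0.59. Cldn5, the claudin of endothelial tight junctions, had 1.68 to 2.24 CPM in WT EtOH and 2.38, 3.74, 2.71, 2.68 and 12.1 CPM in fat-1 EtOH, highest in replicate 5, which also had the most endothelial RNA. Kif26a (a kinesin relative), Tdrp (testis development related protein) and Amph (amphiphysin, of endocytosis) had log2 fold changes of 1.33, 1.11 and 1.43. The remaining 3, the odorant receptor gene Olfr558, the urate pathway gene Urad and the piRNA factor Piwil2, had 0.105 to 0.735 CPM in the WT EtOH mice, so that few reads stood behind them.

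Among those lower in fat-1 EtOH, Gadd45g, a stress-inducible regulator of MAP kinase signalling, measured 19.6, 17.7 and 18.1 CPM in WT EtOH and 15.1, 7.99, 6.31, 9.72 and 10.8 CPM in fat-1 EtOH (log2 fold change -0.89, SE 0.26, unadjusted p = 0.0034 by edgeR). Rspo3, an R-spondin that amplifies Wnt signals for crypt stem cells, measured 4.83, 4.20 and 3.61 CPM against 2.57, 2.89, 1.39, 1.34 and 2.22 CPM (log2 fold change -1.01, and -0.72 without replicates 3 and 4). Edn3, which encodes the peptide endothelin 3, measured 46.3 to 63.6 CPM against 39.4, 42.3, 13, 12.3 and 41.7 CPM, with the low values in replicates 3 and 4. Srd5a2, a steroid 5-alpha reductase, was lowest in replicate 5 and measured 1.61 to 3.67 CPM against 0.599 to 1.52 CPM. The prostaglandin D2 receptor gene Ptgdr measured 1.16 to 1.68 CPM against 0 to 0.855 CPM. Parpbp, Lrrc55, Scn8a and Tigd4 made up the rest, with log2 fold changes of -0.81, -0.81, -0.95 and -1.23.

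**Figure D3:**
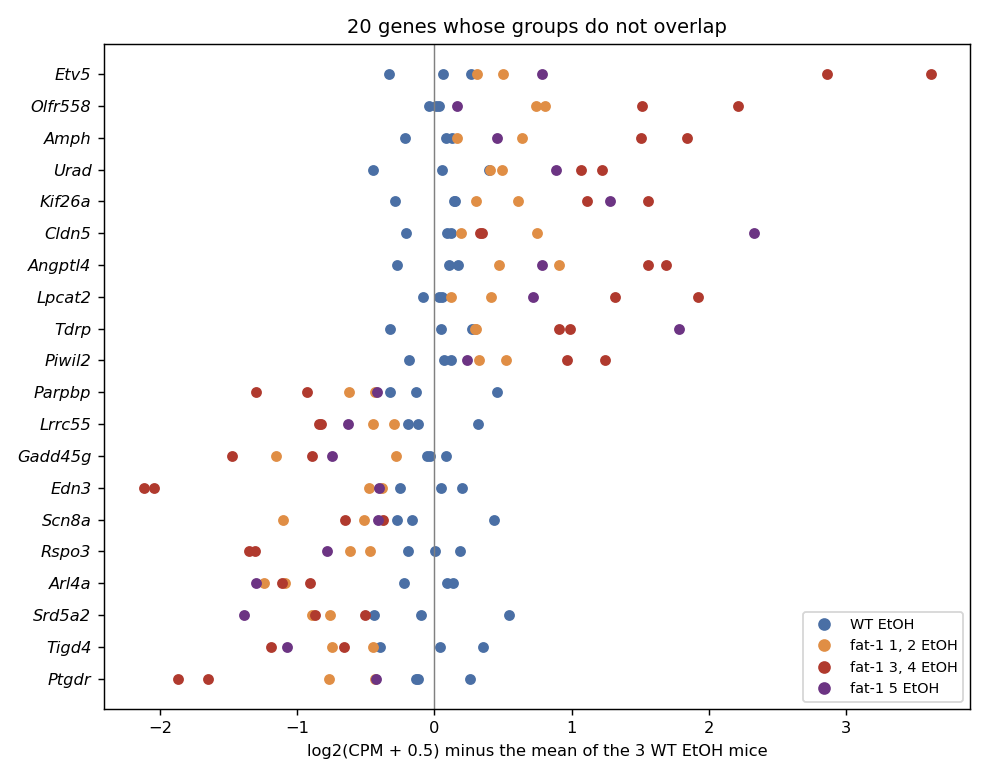
Log2(CPM + 0.5) of each of the 8 EtOH mice relative to the mean of the WT EtOH mice, for the 20 genes with an unadjusted p under 0.05, no overlap between groups and the largest log2 fold changes in each direction. Etv5, Edn3 and Ptgdr are drawn out by fat-1 EtOH replicates 3 and 4 and Cldn5 by replicate 5, while the 5 fat-1 EtOH points of Arl4a lie close together.

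Of 12 immediate early genes, 1 had an unadjusted p under 0.05, beside 4.86% of all genes. This was Zfp36 (tristetraprolin, which binds AU-rich elements and promotes decay of inflammatory mRNAs), at 251, 262 and 320 CPM in WT EtOH and 176, 191, 133, 131 and 165 CPM in fat-1 EtOH. The groups did not overlap, and the log2 fold change was -0.80 (SE 0.20, unadjusted p = 9.4e-04 by edgeR) and -0.65 without replicates 3 and 4. In the PF mice, where fat-1 replicates 2 and 4 stood apart, the sign was the other way, at 205 to 274 CPM for WT and 189, 282, 392 and 312 CPM for fat-1 (log2 fold change 0.34). The difference between diets had an unadjusted p of 8.4e-04, and no such difference passed adjustment over all genes (smallest adjusted p = 0.595 by edgeR, with 1141 genes at an unadjusted p under 0.05). Junb, also lower without overlap, had a log2 fold change of -0.26. The list as a whole had a median of 0.10, and of -0.25 without replicates 3 and 4, where Zfp36 and Fos were lower at an unadjusted p under 0.05.

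A second count model called more genes. DESeq2's Wald test called 5 genes, Arl4a and 4 that were higher: Ccn3, Plet1, Nxpe2 and Cmah (adjusted p 0.0215, 0.0356, 0.0215 and 0.0247). Ccn3, a matricellular growth regulator, measured 1.79, 1.26 and 0.588 CPM in WT EtOH and 1.62, 2.30, 221, 111 and 2.65 CPM in fat-1 EtOH. Plet1, a surface protein of epithelial progenitors, measured 0.985, 1.78 and 1.60 CPM in WT EtOH and 1.43, 1.53, 184, 140 and 2.14 CPM in fat-1 EtOH. In both genes only replicates 3 and 4 exceeded 2.65 CPM. Nxpe2 measured 0.252 to 0.895 CPM in WT EtOH and 1.24, 0.765, 43.1, 27.7 and 3.59 CPM in fat-1 EtOH. Cmah, the hydroxylase that turns N-acetyl- into N-glycolylneuraminic acid, measured 1.76 to 6.09 CPM in WT EtOH and 5.61, 6.46, 94.7, 46.5 and 41.7 CPM in fat-1 EtOH, high in replicates 3, 4 and 5. In edgeR their log2 fold changes were 5.80, 5.49, 4.75 and 3.11, with adjusted p of 0.757 each, the groups overlapped for all 4, and without replicates 3 and 4 they were 0.85, 0.22, 1.72 and 1.97.

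In the text of its Results the study named 24 genes for this comparison that are present in the table, and 23 of them were tested. They were selected on these same mice, so their counts are not independent evidence of direction. In edgeR 9 had an unadjusted p under 0.05 and were higher (beside 3.4% of all genes), 3 had it and were lower (Arl4a, Pla2g4c and Socs3, beside 1.46%), and only Arl4a showed no overlap. When replicates 3 and 4 were left out, 2 were higher at that p (Cd209b and Nxpe2) and 4 lower (Arl4a, St6galnac6, Cbs and Tlr2). In 16 of the 23, replicates 3 and 4 held the 2 highest values. Grin3a, a glutamate receptor subunit, failed the count filter, and had 36.7 and 21.1 CPM in replicates 3 and 4 against 0.285 to 0.735 CPM in the other 6. The median log2 fold change of the 23 was 1.69 with all mice, -0.42 without replicates 3 and 4, and 0.14 when WT EtOH replicate 2, the WT library rich in large intestine genes, was left out as well.

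Several of these genes had the opposite sign without the 2 libraries. The sialyltransferase gene St6galnac6 measured 11.7, 69.7 and 8.49 CPM in WT EtOH and 10.2, 12.1, 478, 379 and 12 CPM in fat-1 EtOH, where WT EtOH replicate 2 was the highest of the remaining mice. Its log2 fold change was 2.58, and -1.40 without replicates 3 and 4. Cbs, cystathionine beta-synthase of sulfur amino acid metabolism, followed the same pattern (1.95 and -2.12), as did Acaa1b, a peroxisomal thiolase (2.67 and -1.90), and Tlr2, a receptor for bacterial lipoproteins (1.68 and -0.99). Smaller reversals were measured for Cyp2c65, a cytochrome P450 that epoxidizes arachidonic acid (2.12 and -0.58), for the aldose reductase relative Akr1b8 (2.04 and -0.42), for Acacb, acetyl-CoA carboxylase 2 (1.88 and -0.14), for the sulfide-detoxifying enzyme gene Tst (1.18 and -0.37) and for Hk1, hexokinase 1 (1.22 and -0.35). With WT EtOH replicate 2 also left out, the signs of Cyp2c65 (0.81), Akr1b8 (0.20), Acacb (0.28), Tst (0.14), Hk1 (0.077), Acaa1b (0.91) and St6galnac6 (0.17) were positive again, while Cbs (-0.65) and Tlr2 (-0.16) remained negative. The carboxylesterase gene Ces1d came to 1.29 and 0.00, Tph1, which makes serotonin in enterochromaffin cells, to 1.69 and 0.05, and the sialyltransferase gene St3gal3 to 1.47 and 0.13.

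Cd209b, a C-type lectin of macrophages that binds microbial glycans, was a case of 1 mouse: 45.8 CPM in fat-1 EtOH replicate 5 and at most 0.760 CPM in the other 7 mice. Among the lower genes, Pla2g4c (cytosolic phospholipase A2 gamma, which releases fatty acids from membranes) measured 1339 CPM in WT EtOH replicate 1 and 84.4 and 103 CPM in the other WT EtOH mice, against 90.1, 107, 4.92, 3.48 and 163 CPM in fat-1 EtOH. Fgf15, the ileal hormone that restrains bile acid synthesis, measured 108, 20.4 and 65.1 CPM against 27.3, 15.6, 0.082, 0.268 and 4.36 CPM (log2 fold change -2.77, SE 1.57, unadjusted p = 0.0998 by edgeR), with the 2 lowest values in replicates 3 and 4. Socs3, a feedback inhibitor of cytokine signalling through STAT3, measured 87.7, 193 and 77.0 CPM against 81.5, 28.1, 17.6, 19.3 and 76.1 CPM (log2 fold change -1.42, and -0.96 without replicates 3 and 4). The nitric oxide synthase gene Nos2 measured 127 to 215 CPM against 2.41 to 142 CPM, and the epithelial tyrosine kinase gene Ptk6 65.2 to 191 CPM against 20.4 to 99.9 CPM. For Socs3 and Ptk6 the highest value of the 8 was that of WT EtOH replicate 2, which shared large intestine genes with fat-1 EtOH replicates 3 and 4.

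**Figure D4:**
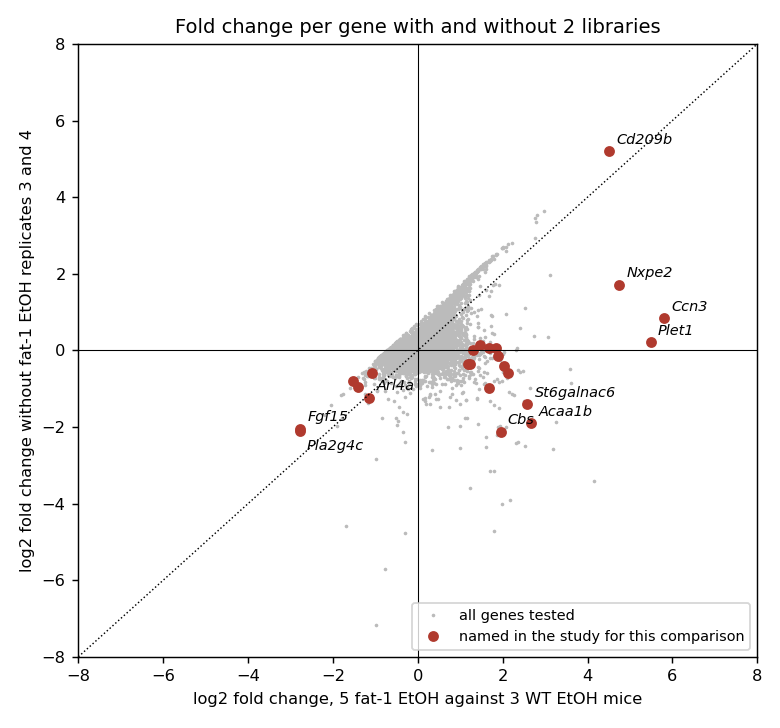
Log2 fold change of every tested gene with all 5 fat-1 EtOH mice (horizontal) and without fat-1 EtOH replicates 3 and 4 (vertical), both against the 3 WT EtOH mice, with genes named in the study for this comparison in red. Arl4a lies near the diagonal at -1.14 and -1.23, whereas Ccn3 and Plet1 drop from 5.80 and 5.49 to 0.85 and 0.22, and Cbs, Acaa1b and St6galnac6 change sign.

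Gene lists were read against the same measures over all genes, of which 4.86% had an unadjusted p under 0.05 and the median log2 fold change was 0.04 with all mice and -0.003 without replicates 3 and 4. The receptors through which fatty acids act had 1 member past the unadjusted threshold. Of 8 tested fatty acid receptors 1 had an unadjusted p under 0.05, with a median of 0.31 that became -0.05 without the 2 replicates. That was Ffar2, a receptor for short-chain fatty acids, at 6.18, 4.93 and 4.87 CPM in WT EtOH and 4.37, 4.85, 22.6, 21.1 and 7.10 CPM in fat-1 EtOH. Ffar4, a long-chain and n3 PUFA receptor, had 7.25 to 11.5 CPM against 10.9, 6.55, 37.6, 22.4 and 8.47 CPM, and Ffar1 and Ffar3 had log2 fold changes of 0.34 and -0.05. The nuclear receptor genes Ppara, Ppard and Pparg had log2 fold changes of 0.24, -0.26 and 0.75, and the fatty acid transporter gene Cd36 0.28, none past an unadjusted p of 0.05. Per kilobase of exon, Ppard averaged 25.8 ± 3.70 CPM in WT EtOH (SD, n = 3) and 21.5 ± 4.32 CPM in fat-1 EtOH (SD, n = 5).

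Downstream of them, 4 of 31 genes of PPAR targets and fatty acid oxidation had an unadjusted p under 0.05 and were higher, none lower, with a median log2 fold change of 0.32 (-0.08 without replicates 3 and 4). Beside Angptl4 these were the acyl-CoA thioesterase genes Acot1 and Acot2, near-identical neighbours whose reads may be split between them, and the lipid droplet coat gene Plin2. Acot2 measured 1.61, 4.41 and 1.76 CPM in WT EtOH and 1.24, 2.64, 29.5, 27.0 and 3.85 CPM in fat-1 EtOH, and Plin2 measured 67.0 to 77.9 CPM against 75.3, 84.4, 215, 218 and 76.2 CPM. The 3 genes other than Angptl4 were high in replicates 3 and 4 only, and 21 of the 31 members had their 2 highest values there.

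The enzymes that make and use PUFAs gave no call. None of 14 PUFA desaturation and elongation genes had an unadjusted p under 0.05, and the median log2 fold change was 0.03 (0.01 without the 2 replicates), with a range from -0.33 to 0.23. Of 27 eicosanoid and oxylipin enzymes 2 had it: Pla2g4c, lower, and Mgll, monoacylglycerol lipase, higher at 33.4 to 58.5 CPM in WT EtOH against 35.3, 36.4, 261, 270 and 65.6 CPM in fat-1 EtOH. For 20 genes of fatty acid and sterol synthesis the count was 1 (Acacb) and the median -0.03.

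Among the 20 pathway lists, the glycan list had the largest number of members past the unadjusted threshold. Of 28 tested sialic acid and glycan transfer genes, 8 had an unadjusted p under 0.05, all higher, with a median of 0.49 and none without overlap. Gne and Slc35a1, which make CMP-sialic acid precursors and carry CMP-sialic acid into the Golgi, measured 67.2 to 73.3 and 29.2 to 43.6 CPM in WT EtOH, 266 to 334 and 150 to 185 CPM in fat-1 EtOH replicates 3 and 4, and 61.3 to 65.0 and 29.9 to 35.3 CPM in the other fat-1 EtOH mice. Galnt12, A4gnt and St3gal3 also had their 2 highest values in replicates 3 and 4. Cmah, St6gal1 and St6galnac4 were high in replicate 5 as well, at 41.7, 45.4 and 13.3 CPM, where the WT EtOH mice had at most 6.09, 16.2 and 5.46 CPM. Without replicates 3 and 4 the median was -0.12, with 2 members past the unadjusted threshold in each direction.

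Microbial sensing was measured through 11 tested Toll-like receptors, 10 of which had a positive log2 fold change, beside 7848 of all 13811 genes. The median was 0.71 (0.58 without replicates 3 and 4). Only Tlr5, the flagellin receptor, had an unadjusted p under 0.05, at 1.97 to 2.31 CPM in WT EtOH and 2.38, 1.62, 16.3, 15.4 and 2.74 CPM in fat-1 EtOH. Past that threshold 3 receptors were higher (Tlr7, Tlr9 and Tlr11) and 1 lower (Tlr2) when replicates 3 and 4 were left out. The list split by library. Tlr1, Tlr2, Tlr4 and Tlr5 had their 2 highest values in replicates 3 and 4, whereas Tlr6, Tlr7, Tlr9, Tlr11 and Tlr13 had their highest value in replicate 5, which also held the most lymphoid RNA. Tlr9, the receptor for bacterial DNA, measured 0.252 to 1.78 CPM in WT EtOH and 1.71, 2.30, 0.164, 0 and 7.44 CPM in fat-1 EtOH. Tlr3, for double-stranded RNA, measured 44.6 to 49.9 CPM against 39.8 to 49.7 CPM. Tlr12 had a log2 fold change of 0.06, and Tlr1, Tlr4, Tlr6, Tlr7, Tlr11 and Tlr13 had 0.68, 0.91, 0.71, 0.64, 1.16 and 0.23.

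Barrier and defence lists had 0 to 3 members past the unadjusted threshold. Of 20 tight junction genes 3 passed, 1 higher and 2 lower, with a median of -0.12, and the members Cldn5, described above, and Marveld3 had log2 fold changes of 1.21 and -0.48. Marveld3, a MARVEL protein of tight junctions, measured 90.9, 95.1 and 73.8 CPM in WT EtOH and 81.1, 69.6, 52.6, 51.4 and 55.3 CPM in fat-1 EtOH. Of 17 inflammation and epithelial defence genes 1 was higher (Il1rn, the interleukin-1 receptor antagonist, at 23.1 and 16.1 CPM in replicates 3 and 4 and at most 4.70 CPM elsewhere). In this list 14 had a negative log2 fold change, beside 5962 of all 13811 genes, with a median of -0.28. Of 16 pyroptosis and cell death genes none passed, and the median was -0.30. Without replicates 3 and 4 the medians of the defence and pyroptosis lists were -0.24 and -0.11, and with WT EtOH replicate 2 also left out they were -0.025 and 0.0058. Of 22 JAK-STAT genes Stat5b was higher (19.2 to 25.4 CPM against 23.8 to 38.5 CPM) and Socs3 lower, with a median of -0.04. Without replicates 3 and 4, 3 of the 22 were higher (beside 3.73% of all genes) and none lower, with a median of 0.10. Replicate 5 held the highest value for 11 of the 22, beside 20.4% of all genes. Of 10 heat shock genes the near-identical Hspa1a and Hspa1b were higher, with Hspa1b at 7.06 to 10.6 CPM in WT EtOH and 68.9, 8.50, 46.0, 17.8 and 5.99 CPM in fat-1 EtOH. The 10 adenosine signalling genes had no member past an unadjusted p of 0.05 and a median of 0.12.

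Metabolic lists had few members past the unadjusted threshold. None of 15 ethanol and acetaldehyde metabolism genes and none of 18 antioxidant genes had an unadjusted p under 0.05 (medians 0.10 and 0.03). Of 29 xenobiotic metabolism genes the similar P450 genes Cyp2d9 and Cyp2d10 were higher (9.92 and 29.3 CPM for Cyp2d9 in replicates 3 and 4, at most 1.57 CPM elsewhere) and Cyp3a13 lower, with a median of 0.32. Of 17 sulfur amino acid and sulfide genes 1 was higher, Mat2a, which makes S-adenosylmethionine, at 627 and 594 CPM in replicates 3 and 4 and 167 to 216 CPM elsewhere. Of 25 glucose and sugar genes 1 was higher, Akr1b8, and the median was 0.13. Without replicates 3 and 4 the medians of the xenobiotic and sulfur lists were -0.19 and -0.21, and with WT EtOH replicate 2 also left out they were 0.030 and -0.10. In the fit without replicates 3 and 4 no member of either list was higher past the threshold, while 2 xenobiotic genes (Cyp2d34 and Sult1a1) and 3 sulfur genes (Cbs, Ethe1 and Selenbp1) were lower.

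**Figure D5:**
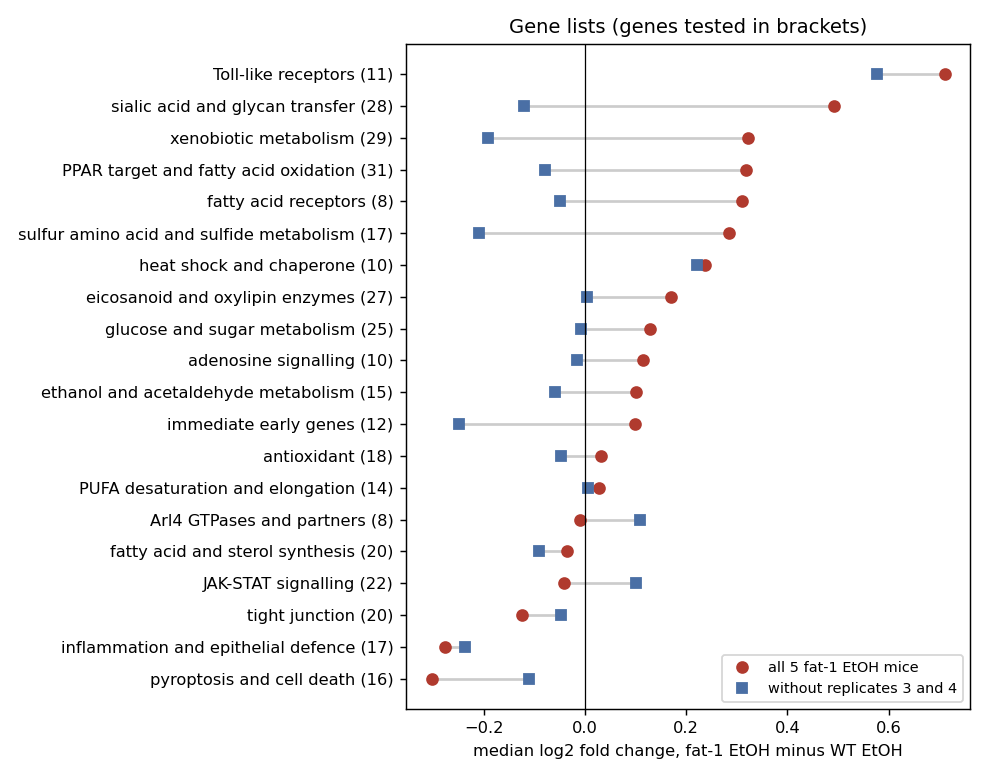
Median log2 fold change (fat-1 EtOH minus WT EtOH) of 20 pathway gene lists, with all 5 fat-1 EtOH mice (circles) and without replicates 3 and 4 (squares). The glycan list moves from 0.49 to -0.12 and the PPAR target list from 0.32 to -0.08, while the Toll-like receptor medians of 0.71 and 0.58 come from different members, since Tlr2 and Tlr4 turn negative without replicates 3 and 4.

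The cell type lists completed the account. For goblet cells, 3 of 12 markers were higher past the unadjusted threshold (Klk1, Spdef and Galnt12) and 1 lower (Fcgbp), with a median log2 fold change of 0.28. For enteroendocrine cells 3 of 13 were higher (Chga, Chgb and Tph1), with a median of 0.14, and for stem and crypt cells 1 of 11 (Cd44), with a median of 0.21. Each of these 7 higher genes had its 2 highest values in replicates 3 and 4, such as Klk1 at 851 and 614 CPM against 71.6 to 102 CPM in the other 6 mice. Without replicates 3 and 4 the goblet, enteroendocrine and stem and crypt medians were -0.075, -0.052 and -0.077, and no member of the 3 lists was higher past the threshold. Cdk1 was the 1 lower of 12 proliferation genes (median -0.39, and -0.18 without replicates 3 and 4). The erythroid gene Alas2 was the 1 higher of 6 red blood cell genes (median 0.88), at 0 to 0.179 CPM in WT EtOH and 0.178 to 1.45 CPM in fat-1 EtOH, so that few reads stood behind it. Without replicates 3 and 4, 3 of these 6 genes were higher past the threshold (beside 3.73% of all genes), with a median of 1.06. Replicate 5 held the highest value for 5 of the 6, beside 20.4% of all genes. The B-cell follicle list had no member past the unadjusted threshold and a median of 1.37 in the full comparison, and 10 of 14 higher without replicates 3 and 4 (beside 3.73% of all genes in that smaller comparison), with a median of 2.07. The T-cell list went from 0 to 5 of 13 (medians 0.45 and 0.91), and the macrophage and dendritic cell list from 1 to 7 of 12 (medians 0.42 and 0.77). Replicate 5 held the highest value for 14 of 14, 9 of 13 and 11 of 12 members of these 3 lists, beside 20.4% of all genes, and in the smaller comparison it is 1 of 3 fat-1 EtOH mice. The B-cell follicle genes summed to 139 and 161 CPM in the other 2 and to 21.9 to 148 CPM in WT EtOH, the T-cell genes to 123 and 60.6 CPM and to 80.3 to 141 CPM, and the macrophage and dendritic cell genes to 313 and 239 CPM and to 226 to 263 CPM.

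For the remaining lists no member passed an unadjusted p of 0.05 with all mice, while without replicates 3 and 4 it was passed by 3 large intestine genes, all lower (Aqp8, Slc26a3 and Retnlb), and by 2 endothelium genes, both higher (Pecam1 and Lyve1). The medians were -0.43 for proximal small intestine, -0.42 for ileal bile acid handling, -0.87 for Paneth cells and -0.33 for tuft cells, and without replicates 3 and 4 they were 0.20, 0.02, -0.18 and 0.05. The large intestine list had a median of 0.02 with all mice and -0.43 without replicates 3 and 4, where WT EtOH replicate 2 held the highest value of Aqp8 (315 CPM). Smooth muscle, enteric neuron and glia, adipocyte and endothelium lists had medians of 0.35, 0.40, 0.22 and 0.31, and of -0.031, -0.11, 0.39 and 0.45 without replicates 3 and 4.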

How the data were processed

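The deposited values are raw counts: the authors aligned stranded poly(A) reads to mm10 (GRCm38) with tophat2 and counted them over Ensembl genes with htseq. They are not normalized, and htseq's strand setting is not given in the sources used here, so overlapping genes may share reads. Symbols and positions came from GENCODE M21 of the same build, in which 26 of 21965 genes are absent. The authors' own cuffdiff2 results were not used.

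Counts were fitted with edgeR 4.0.16 in R 4.3.3 (TMM, filterByExpr on the 4 groups, robust quasi-likelihood fit of all 16 libraries, 1 mean per group), with the contrast of fat-1 EtOH minus WT EtOH and Benjamini-Hochberg adjustment over 13811 genes, and tested on simulated data. Single genes were compared on log2(CPM + 0.5) by an exact two-sided permutation test. DESeq2 1.42.0, limma 3.58.1 (voom with sample weights), other scalings, count filters, left-out libraries, a large intestine score as covariate and a replicate block were the alternatives. Mice of 1 group were taken as replicates, and no 2 libraries of a group agreed within sampling noise. Depth was 9045041 to 11438539 counts in the EtOH libraries, and limits from 3 counts cover counting error only.

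Genes were named as follows: the DEGs; the 10 largest differences in each direction among genes without overlap and with an unadjusted p under 0.05; genes called by an alternative; genes the study names for this comparison in the text of its Results (not those only in its tables); Arl4, Toll-like and fatty acid receptor lists in full. Extreme members of each of 39 lists were to be named, but where none passed an unadjusted p of 0.05 only counts and medians are given, and members that passed it are named with 1 exception, a choice made after the values were seen. The exception is not reported here. Raph1, Scin, Dock4, Car1, Aqp8, Defa22, Lef1, Fcer2a, the mouse gene Fat1, Junb and list members that passed only without fat-1 EtOH replicates 3 and 4 were also chosen after their values were seen. The comparison and the lists were chosen with earlier results of these data known.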

Additional observations from a re-analysis of the deposited data

Results flagged for a closer look

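Among the 143 values and list means examined for a mouse far from its group, 3 genes had 1 fat-1 EtOH mouse separated from the other 4 by more than Dixon's limit for 5 samples (0.71 of the group's range), and in each it was replicate 5 on the high side. About 1 in 20 groups would be marked in this way without any difference. Cd209b had 45.8 CPM in that mouse, Lef1, which was chosen for its height in that mouse, had 18 CPM and Cldn5 had 12.1 CPM. The B-cell follicle list summed to 935 CPM in the same mouse. The share of each that comes from follicle tissue was not tested.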

How the results depend on the processing

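The number of DEGs stayed at 1, Arl4a, under limma voom with sample weights, DESeq2 size factors, upper-quartile scaling, both count filters, the large intestine covariate, and without fat-1 EtOH replicates 3 and 4 with or without WT EtOH replicate 2. It was 5 with DESeq2, 4 of them higher, and 0 with only the 8 EtOH libraries (324 genes at an unadjusted p under 0.05) and with the replicate block (521 genes, adjusted p of Arl4a 0.152). Leaving out 1 mouse at a time gave 0 to 1, with 0 without WT EtOH replicate 1 (405 genes) or 3 (361 genes). The count at an unadjusted p under 0.05 was 1248, 1601, 291, 347 and 1002 without fat-1 EtOH replicates 1 to 5 in turn, against 671 with all. The cause was not tested. Whether replicate numbers pair the mice could not be settled from so few pairs. The deviations of same-numbered EtOH mice correlated at -0.252 to 0.156 over 3 pairs, and those of other-numbered EtOH mice at -0.294 to 0.262 over 12. Having only 3 WT EtOH mice limits every comparison with that group. The permutation p of Arl4a is at its smallest value and so says nothing about stability.

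Over all genes, 9428 of 13811 kept their sign without fat-1 EtOH replicates 3 and 4. Among the 105 named genes that were followed across the settings, none turned its sign with the large intestine score as covariate. In other settings, signs of log2 fold changes turned as follows. Without fat-1 EtOH replicates 3 and 4 they were A4gnt -1.18, Acaa1b -1.90, Acacb -0.14, Acot1 -0.079, Akr1b8 -0.42, Arl4d 0.23, Car1 -4.71, Cbs -2.12, Chga -0.066, Chgb -0.027, Cyp2c65 -0.58, Cyp2d10 -0.50, Cyp2d9 -0.85, Cyth3 -0.015, Ffar3 0.11, Ffar4 -0.12, Galnt12 -0.049, Gne -0.15, Hk1 -0.35, Klk1 -0.10, Mat2a -0.036, Mgll -0.086, Ppara -0.19, Pparg -0.74, Slc35a1 -0.11, Spdef -0.055, St6galnac6 -1.40, Tlr2 -0.99, Tlr4 -0.20 and Tst -0.37. Without WT EtOH replicate 2 in addition they were A4gnt -0.83, Aqp8 3.71, Arl4d 0.21, Cbs -0.65, Chga -0.15, Chgb -0.19, Cyth3 -0.031, Ffar2 -0.024, Ffar3 0.15, Galnt12 -0.020, Gne -0.17, Ppara -0.30, Ppard 0.011, Ptk6 0.0019, Spdef -0.077, St3gal3 -0.047, Tlr2 -0.16, Tlr4 -0.11 and Tph1 -0.19. With voom they were A4gnt -0.10, Aqp8 1.26, Arl4d 0.015, Cd36 -0.24, Cyth3 -0.013, Ffar3 0.010, Ppara -0.034, Pparg -0.066 and Tlr4 -0.017. With the replicate block they were Arl4c -0.19, Cd36 -0.23, Cyth4 -0.25, Fcer2a -0.16, Ffar1 -0.31, Lef1 -0.046, Tlr12 -0.21, Tlr13 -0.20, Tlr6 -0.10, Tlr7 -0.33 and Tlr9 -0.058. Leaving out 1 mouse at a time gave ranges of -2.12 to 9.89 for Aqp8, -0.20 to 1.49 for Arl4c, -0.20 to 0.60 for Cd36, -0.23 to 1.02 for Cyth4, -0.18 to 2.20 for Fcer2a, -0.33 to 0.71 for Ffar1, -0.19 to 0.064 for Ffar3, -0.17 to 0.31 for Tlr12, -0.19 to 0.44 for Tlr13, -0.30 to 0.89 for Tlr7 and -0.053 to 1.62 for Tlr9.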
